A study of Mus musculus with 2 samples.

Results

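Pro-B and large pre-B cells are the B lineage precursors of the bone marrow that assemble the immunoglobulin heavy chain and then divide on the signal of its first product. They were described here in droplet single-cell RNA sequencing of total femoral bone marrow from 1 mouse of each of 2 genotypes. Both mice were 2 months old by a figure legend of the study. The library labelled WT came from a littermate control that carried floxed Ddx41 alleles (Ddx41 fl/fl), no Cre and wild-type cGas. The library labelled DKO came from a VavCre:Ddx41 fl/fl, cGAS-/- mouse, in which Cre driven by the Vav promoter deletes Ddx41 in blood-forming cells and both cGas alleles are knocked out in all tissues. The study says that this Cre is also active in oocytes and the endothelium. Ddx41 encodes a DEAD-box helicase and cGas a sensor of cytosolic DNA. The groups therefore differed in both genes together, and no library with either change alone was analysed here. With 1 library per genotype no difference between genotypes was tested, and the intervals given below are 95% intervals that cover counting error only.

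A barcode was counted as a member when it had at least 500 UMIs (unique molecular identifiers, each standing for a captured RNA molecule), at most 20% mitochondrial and under 20% hemoglobin UMIs, at least 3 UMIs of Cd79a and Cd79b, at least 2 UMIs of Vpreb1 and Igll1, under 20 UMIs of Jchain, and under 5% of UMIs from the neutrophil granule genes S100a8, S100a9, Camp, Ngp and Ltf. This gave 461 members of 19433 barcodes that passed the UMI, mitochondrial and hemoglobin limits. There were 294 members of 11583 in the WT library (2.54%, exact Clopper-Pearson interval 2.26 to 2.84) and 167 of 7850 in the DKO library (2.13%, 1.82 to 2.47), and the intervals overlapped. The WT matrix lists all barcodes and the DKO matrix called barcodes only, so the totals were formed differently and the shares may not be comparable. Among B lineage barcodes, those that met all limits apart from Vpreb1 and Igll1, members were 12.5% of 2348 in WT and 10.8% of 1542 in DKO. The median depth was 6477.5 UMIs and 2489 genes per WT member and 9988 UMIs and 3187 genes per DKO member, with totals of 2789058 and 2467366 UMIs. Of 82 barcode sequences that the libraries shared at 500 or more UMIs, 0 were members.

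In a pro-B cell, the recombinase made of RAG1 and RAG2 cuts the heavy chain locus, terminal transferase (the product of Dntt) adds bases to the open ends, and end-joining factors close them. A heavy chain that is made successfully pairs with the surrogate light chain, which is built from VPREB and IGLL1 and stands in for the light chain not yet made. This pre-B receptor, with the signalling chains CD79A and CD79B and the interleukin-7 receptor, drives the divisions of large pre-B cells, after which RAG returns and the light chain loci are rearranged. EBF1, PAX5 and the E proteins are the transcription factors that set up and hold this program.

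Because the members were defined by surrogate light chain RNA, the sequences just upstream of its genes are shown beside those of Dntt and Rag1, the genes that separate the stages below. Each sequence is the 250 bases before the RefSeq start, 5′ to 3′ on the strand of the gene, from GRCm38.p6. Capitals mark matches on either strand to 5 short motifs: CCCNNGGG for EBF1, CAGGTG (an E-box of the E proteins), TGGGAA for Ikaros, TGTTTAC for FOXO factors and ATCAAAG for TCF and LEF factors. Igll1 (chr16:16863986-16864235, minus strand) and Vpreb1 (chr16:16869256-16869505, minus strand) lie side by side, Dntt has its window at chr19:41029025-41029274 (plus strand) and Rag1 at chr2:101649533-101649782 (minus strand). The Rag1 start in RefSeq matched no transcript start of the GENCODE annotation used for the gene positions below.
Igll1: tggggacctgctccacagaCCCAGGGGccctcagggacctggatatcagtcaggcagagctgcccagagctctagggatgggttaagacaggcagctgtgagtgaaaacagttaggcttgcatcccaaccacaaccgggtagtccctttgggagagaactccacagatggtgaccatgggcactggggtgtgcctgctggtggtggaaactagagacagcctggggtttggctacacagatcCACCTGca
Vpreb1: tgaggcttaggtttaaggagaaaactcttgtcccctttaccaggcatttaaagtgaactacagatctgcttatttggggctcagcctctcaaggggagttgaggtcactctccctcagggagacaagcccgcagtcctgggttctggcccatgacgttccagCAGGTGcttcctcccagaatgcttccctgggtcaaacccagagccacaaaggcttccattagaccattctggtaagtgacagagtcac
Dntt: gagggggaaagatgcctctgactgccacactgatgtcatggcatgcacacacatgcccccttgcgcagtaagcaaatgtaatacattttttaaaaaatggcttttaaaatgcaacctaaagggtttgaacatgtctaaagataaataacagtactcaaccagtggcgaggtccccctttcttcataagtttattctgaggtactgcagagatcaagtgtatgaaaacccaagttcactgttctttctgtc
Rag1: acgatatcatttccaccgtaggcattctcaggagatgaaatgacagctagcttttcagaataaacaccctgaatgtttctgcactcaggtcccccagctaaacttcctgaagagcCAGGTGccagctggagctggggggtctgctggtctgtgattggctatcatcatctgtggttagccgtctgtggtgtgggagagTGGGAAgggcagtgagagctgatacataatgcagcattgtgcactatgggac

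The Igll1 window held an EBF1 match (CCCAGGGG, from base -231 to -224 counted back from the start) and an E-box match from -8 to -3. The Vpreb1 window held an E-box match from -88 to -83, the Rag1 window an E-box match from -135 to -130 and an Ikaros match from -52 to -47, and the Dntt window none of the 5. No match overlapped another. Such matches are common. Of 32817 windows of this length, 11.82% held the EBF1 letters, 17.22% the E-box, 21.6% the Ikaros, 3.163% the FOXO and 3.209% the TCF and LEF letters, so a match is a description of these bases and not of a bound site.

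Several markers of the B lineage and its stages were not used by the rule. Levels are given as CPM, the usual scaling of UMI counts to a fixed library total. Ebf1 stood at 4628 CPM in WT members and 5260 in DKO members. It was also high in B lineage barcodes without UMIs of Vpreb1 and Igll1, at 3168 and 4458 CPM, so it does not show the stage of the members. The interleukin-7 receptor gene Il7r was at 306 and 333 CPM. Kit and Flt3, which mark the earliest of these cells, were low, with 13.6 and 6.49 CPM for Kit and 11.1 and 16.6 CPM for Flt3. Ms4a1, which encodes CD20 of later B cells, was at 15.8 and 11.3 CPM. The defining T cell genes were near 0, with 23 UMIs of Cd3 and Trbc genes over all WT members and 3 over all DKO members. In barcodes of T cells, 0 of 433 in WT and 0 of 188 in DKO had 2 or more UMIs of Vpreb1 and Igll1, which allows a share of up to 0.848% and 1.94%, at median depths of 4461 and 5608.5 UMIs. The T cell set left out B lineage barcodes. Of barcodes with 10% or more granule gene UMIs, 9 of 3090 in WT and 2 of 2730 in DKO had 2 or more UMIs of Vpreb1 and Igll1. Members have at least 2 by the rule, so these shares describe the background and are not a comparison of levels. Of the members, 252 WT and 149 DKO barcodes had 4 or more such UMIs.

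Near the limit of the rule the make-up differed. The 19 WT and 11 DKO members with exactly 2 UMIs of Vpreb1 and Igll1 had no Dntt UMI at all, whereas Dntt was at 496 and 565 CPM in members with 4 or more. Just outside, the 64 WT and 47 DKO barcodes with 1 UMI had 1.89 and 8.75 CPM of Dntt. Lef1 was at 172 CPM inside and 73.9 outside in WT, and at 97.4 inside and 71.8 outside in DKO. The neutrophil elastase gene Elane was at 658 CPM inside and 2666 outside in WT, and at 9.74 and 1218 in DKO, so the barcodes just outside also carried more RNA of myeloid progenitors.

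Members separated by 2 features that the rule did not use. One was Dntt, at 2 or more UMIs (Dntt-positive) or fewer (Dntt-low), and the other was the share of UMIs from 44 S phase and G2/M genes, called cycling at 0.3% or more. The cycle share is a range and not a type, but few members lay near the limit, since 16 of 294 WT and 2 of 167 DKO members had a share between 0.2% and 0.5%. Of the 4 states formed in this way, Dntt-positive resting, Dntt-positive cycling, Dntt-low cycling and Dntt-low resting, WT had 78, 66, 123 and 27 barcodes. In the same order, DKO had 53, 23, 74 and 17. Cycling members were the deepest, with medians of 9148 and 10194 UMIs in WT against 3464.5 and 2485 in the resting states, and 17991 and 18957 in DKO against 5267 and 4162.

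**Figure D1:**
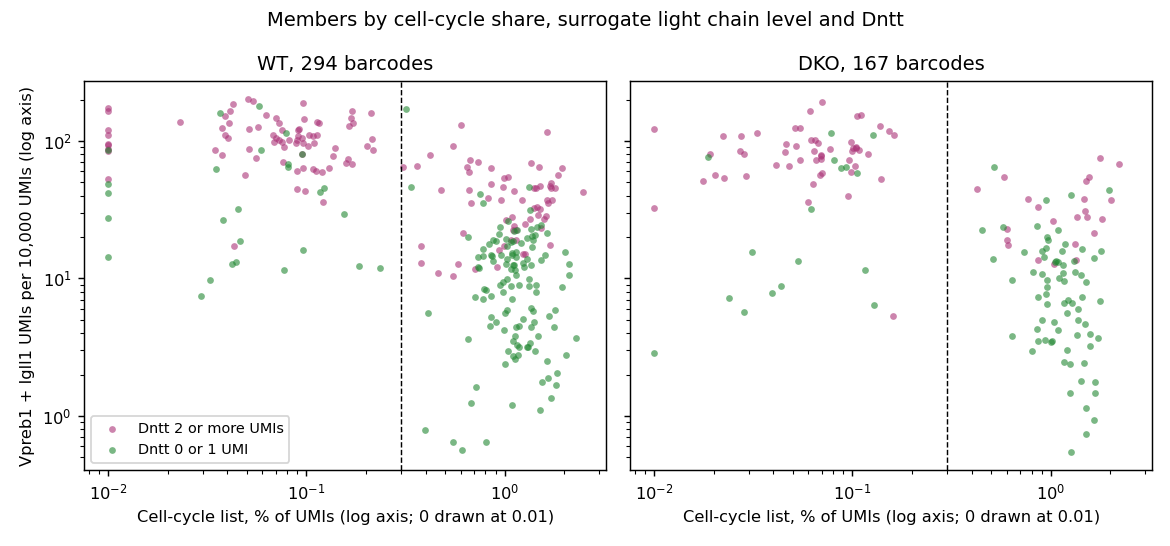
Each point is 1 member barcode of the WT (left) or DKO (right) library. The x axis is the percent of UMIs from the cell-cycle list and the y axis is Vpreb1 and Igll1 UMIs per 10000 UMIs, both on log axes, with Dntt-positive and Dntt-low members in different colours and the cycling limit of 0.3% dashed. Surrogate light chain levels are highest at the upper left, in Dntt-positive resting members (medians of 102 in WT and 84.1 in DKO), and lowest in Dntt-low cycling members (9.03 and 7.52). The rule asks for a fixed number of these UMIs, so the deeper cycling barcodes can enter at lower levels.

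Dntt-positive members were 49.0% of WT members (43.1 to 54.8) and 45.5% of DKO members (37.8 to 53.4). When each member was thinned to 3000 UMIs and the 62 WT and 11 DKO members with fewer were left out, the shares were 37.1% and 37.8%. Background Dntt was low, with 2 or more UMIs in 4 of 433 WT (0.924%) and 0 of 188 DKO T cell barcodes. Dntt-positivity therefore did not differ between the libraries beyond counting error.

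Cycling members were 64.3% in WT (58.5 to 69.8) and 58.1% in DKO (50.2 to 65.7). Among members of at least 3000 UMIs, which left out 62 WT and 11 DKO members, the shares were 77.6% (71.7 to 82.8) and 60.9% (52.8 to 68.6), and these intervals did not overlap. Thinned to 3000 UMIs each, the same members gave 77.2% and 60.9%. Resting members were shallower in WT (medians of 3464.5 and 2485 UMIs) than in DKO (5267 and 4162). The limit therefore left out mostly resting members in WT, which raises the WT share, and thinning the members that remain does not undo this. Within Dntt-low members cycling was alike, 82.0% in WT and 81.3% in DKO. Within Dntt-positive members it was 45.8% in WT (66 of 144, 37.5 to 54.3) and 30.3% in DKO (23 of 76, 20.2 to 41.9), and these intervals overlapped. With at least 3000 UMIs, a limit that again left out mostly resting members in WT, it was 57.8% (48.0 to 67.2) and 32.4% (21.8 to 44.5). With members thinned to 3000 UMIs it was 46.5% and 28.8%. Possible doublets were taken as members with at least 2 UMIs of T and NK, monocyte, basophil or megakaryocyte genes or with over 5% hemoglobin, and without them the shares were 36.1% and 23.3%.

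Genes of the rule are given by state as a description. The limit of 2 UMIs of Vpreb1 and Igll1 is absolute, so deeper barcodes can enter at lower levels. Of Dntt-low cycling members, 36 of 123 in WT and 12 of 74 in DKO had only 2 or 3 such UMIs. Of Dntt-positive resting members, 0 of 78 and 0 of 53 did. The part of this limit in the order of the states was not tested. Vpreb1 was at 6124 CPM in WT and 4867 in DKO Dntt-positive resting members, at 1783 and 1658 in Dntt-positive cycling, at 537 and 521 in Dntt-low cycling and at 2656 and 2550 in Dntt-low resting members. Igll1 followed the same order, from 3902 and 3313 CPM in the first state to 595 and 508 in Dntt-low cycling members. Vpreb2, a near copy of Vpreb1 that the rule did not use, was also highest in the first state, at 536 and 733 CPM against 36.0 and 37.0 in Dntt-low cycling members. All 3 genes were highest in Dntt-positive resting and lowest in Dntt-low cycling members of both libraries. Reads of the 2 Vpreb genes can be confused. Of all 60-base words of Vpreb1 transcripts 14.9% also occur in Vpreb2. In windows around their starts, which reach past the starts, 153 of 156 aligned bases (98.08%) were identical.

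Rag1 and Rag2, which encode the recombinase that cuts immunoglobulin gene segments, were high in resting members. Rag1 was at 483 CPM in WT and 845 in DKO Dntt-positive resting members, at 106 and 214 in Dntt-positive cycling, at 14.2 and 6.89 in Dntt-low cycling, and at 374 and 578 in Dntt-low resting members. Rag2 ran in parallel at 132 and 227, 54.9 and 124, 14.2 and 10.0, and 116 and 184 CPM. Both genes were thus low in Dntt-low cycling and high in resting members in each library. Xrcc6, which encodes the Ku70 end-joining factor, was highest in Dntt-positive resting members, at 623 and 417 CPM, against 116 and 111 in Dntt-low cycling members.

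Among transcription factors, Erg and Lef1 were high in Dntt-positive members. Erg, an ETS factor of blood progenitors, was at 730 and 756 CPM in Dntt-positive resting and 20.6 and 14.4 in Dntt-low cycling members. Ikzf3, the Ikaros family member Aiolos, went the other way, with 55.6 and 32.9 CPM in Dntt-positive resting, 199 and 247 in Dntt-low cycling and 361 and 802 in Dntt-low resting members. Bach2, a repressor of plasma cell fate, was also highest in Dntt-low resting members, at 5106 and 6270 CPM.

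Of the markers chosen for large pre-B cells, Nrgn was high in cycling Dntt-low members and Il2ra was not (values below). Mki67 and Top2a belong to the cell-cycle lists that set the state, so they could not serve here. Nrgn, which encodes the calmodulin-binding protein neurogranin, was at 332 CPM in WT and 275 in DKO Dntt-low cycling members and at 13.9 and 6.57 in Dntt-positive resting members. Myl4, a myosin light chain gene chosen after its values were seen, was at 578 and 647 CPM against 6.96 and 0. Cd24a, which encodes the heat-stable antigen of precursor B cells, was at 1229 and 1492 CPM against 330 and 411. Nrgn, Myl4 and Cd24a had the same order between these states in both libraries. Nrgn differed between the libraries in Dntt-positive cycling members, at 108 CPM in WT and 12.2 in DKO, a state with 66 and 23 barcodes.

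Dntt-low resting members, the smallest state, had light chain RNA. Igkc, the kappa constant gene, was at 2166 CPM in WT and 2090 in DKO, against 421 and 326 in Dntt-low cycling members. Il2ra, the CD25 gene, was among the markers chosen for large pre-B cells. It was at 77.4 and 131 CPM here against 10.6 and 9.40 in Dntt-low cycling members. In this state Dntt was at 38.7 and 39.4 CPM and Rag1 at the levels given above. Dntt-positive resting members also held Igkc, at 769 CPM in WT and 122 in DKO. Igkc was among the free RNA of the WT library, at 2076 CPM over barcodes with at most 100 UMIs against 417 in WT members. Vpreb1 was at 22.8 against 1498. Empty barcodes of the DKO library were not analysed here, and the part of free RNA in the Igkc values was not tested.

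**Figure D2:**
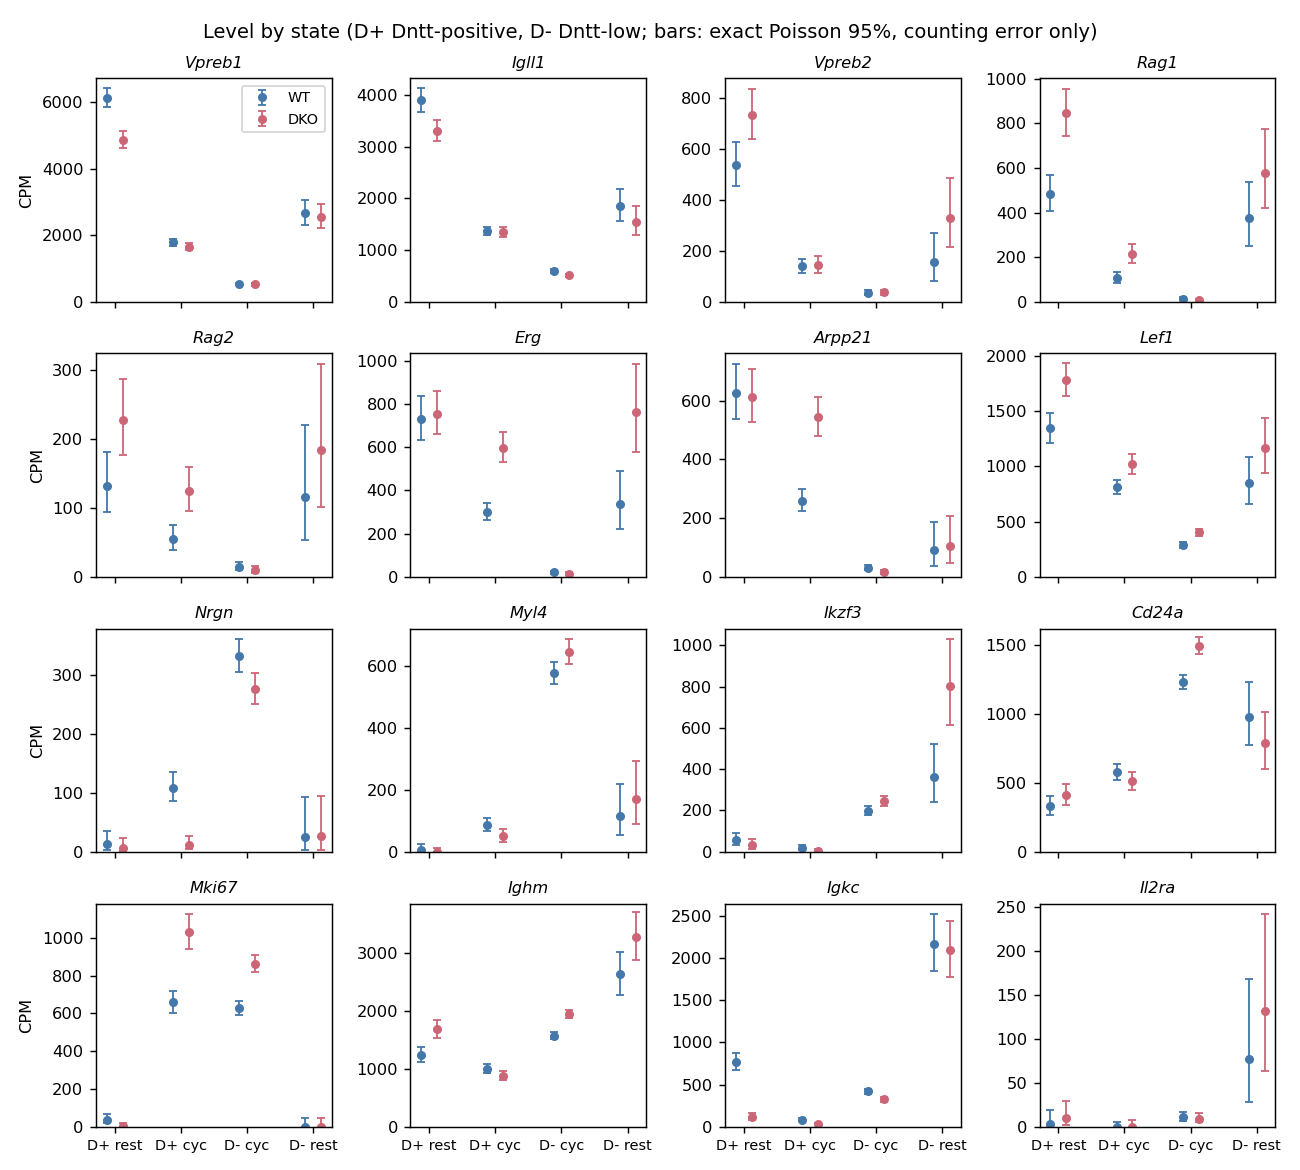
CPM of 16 genes in the 4 states of the WT and DKO members, with D+ for Dntt-positive and D- for Dntt-low, rest for resting and cyc for cycling. Points are summed UMIs over all members of the state in 1 library and bars are exact Poisson 95% intervals, which cover counting error only. Vpreb1, Igll1, Rag1, Rag2, Erg and Arpp21 are high in D+ resting and low in D- cycling members of both libraries, Nrgn and Myl4 peak in D- cycling members, and Igkc and Il2ra in D- resting members.

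To show what set the members apart from later B cells, they were compared within each library with B lineage barcodes of under 2 UMIs of Vpreb1 and Igll1, split at 2 UMIs of Ighd, the IgD gene of mature B cells. The Ighd-low set had 1273 WT and 698 DKO barcodes and the Ighd-high set 781 and 677. The Ighd-low set was not a pure B cell set, since it held 1448 and 937 CPM of Elane and 1126 and 855 CPM of Mpo, both genes of myeloid progenitors. Of 1804 genes with at least 100 CPM in the members, 54 (2.99%) were at least 2-fold higher in members in both libraries and against both sets. Since Vpreb1 and Igll1 chose the sets, genes of the same stage had to follow, and this is a description of the members.

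Leading the genes outside the rule was Vpreb2, at 118 CPM in WT and 153 in DKO members and with 0 and 0.262 CPM in the Ighd-low and 0 CPM in both Ighd-high sets. Dntt was at 413 and 519 CPM in members, 3.23 and 5.24 in Ighd-low and 1.02 and 6.37 in Ighd-high barcodes. Arpp21, which encodes a cyclic AMP-regulated phosphoprotein, was at 153 and 196 CPM in members and 1.52 and 1.83 in Ighd-low barcodes. The levels of all 3 genes in members lay far above those of both later sets in each library.

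Signalling and structural genes followed. Gfra2, a receptor gene of the GDNF family, was at 110 and 171 CPM in members and 5.90 and 8.64 in Ighd-low barcodes. Lef1, the effector of Wnt signalling, was at 550 and 719 CPM against 43.6 and 82.7. Bfsp2, a gene of lens filaments, was at 311 and 285 CPM against 34.4 and 39.0, and Pde2a, a cyclic nucleotide phosphodiesterase gene, at 261 and 307 against 56.5 and 79.9. The remaining leading genes were Erg, Nrgn, Impdh1, Adgrg1, 1700027J07Rik, Gsn, Csgalnact1 and Crip1. Their lowest log2 ratio of members over a later set in either library was 1.59, for Crip1 against the Ighd-low set in DKO.

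**Figure D3:**
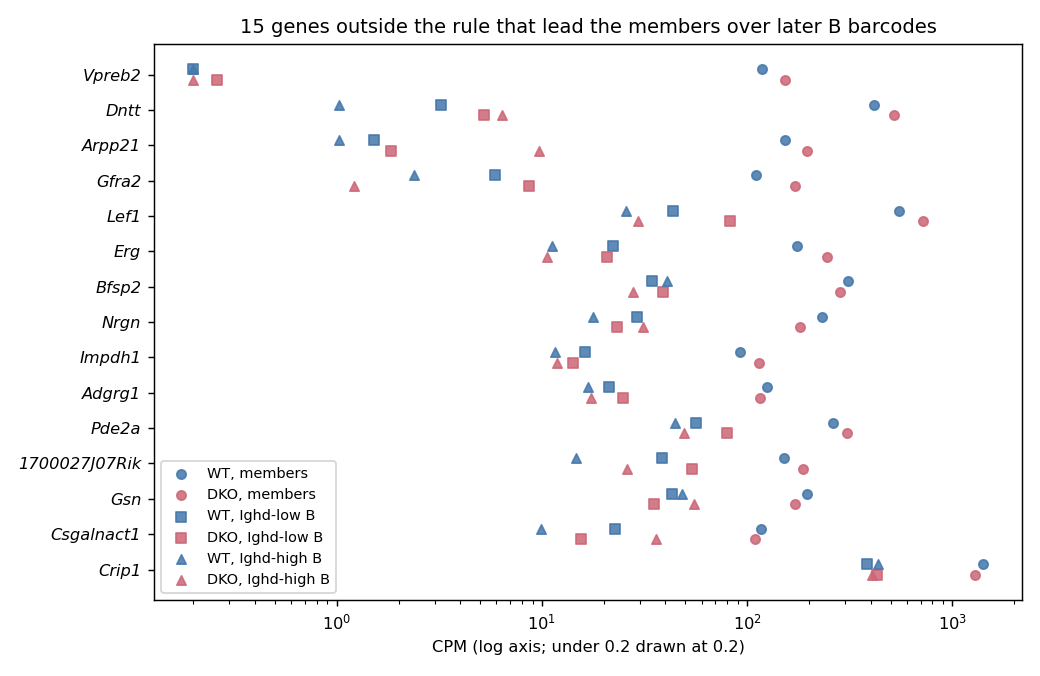
CPM, on a log axis, of the 15 genes outside the rule with the highest ratio of members over later B lineage barcodes. Circles are members, squares Ighd-low and triangles Ighd-high barcodes, in WT and DKO, each point the summed UMIs of 1 set in 1 library and values under 0.2 CPM drawn at 0.2. Circles lie to the right of the squares and triangles of the same library for every gene shown, and the distance is longest for Vpreb2 and Dntt.

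The DKO library was then compared with the WT library. Genes with a mean of at least 20 CPM in the members were taken, and a gene was called when the libraries differed by at least 1.5-fold, with 1 count added. Of 6481 genes, 601 (9.27%) were called, 339 higher in DKO (5.23%) and 262 lower (4.04%), and the median log2 ratio over all genes was 0.07. Setting that median to 0 turned the split to 204 higher and 364 lower, so the balance of directions is not a result. Called means past this fold, with no test. Counts of called genes in the lists below stand beside 5.23% higher and 4.04% lower over all genes.

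The targeted gene came first. Ddx41 (ENSMUSG00000021494, mm10 chromosome 13, 55530410 to 55536658) had 145 UMIs in WT and 62 in DKO members, or 52.0 and 25.1 CPM, a log2 ratio of -1.04 (-1.50 to -0.61). UMIs came from 98 of 294 WT and 44 of 167 DKO members. The ratio was -0.92 in Ighd-low and -0.91 in Ighd-high barcodes. The library reads the 3′ ends of transcripts and the exons that the floxed allele removes are not given in the sources used here, so reads may come from outside them and the value does not measure how complete the deletion was. Cgas had 26 and 11 UMIs (9.32 and 4.46 CPM, log2 ratio -0.99, -2.23 to 0.00), too few to tell the libraries apart.

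**Figure D4:**
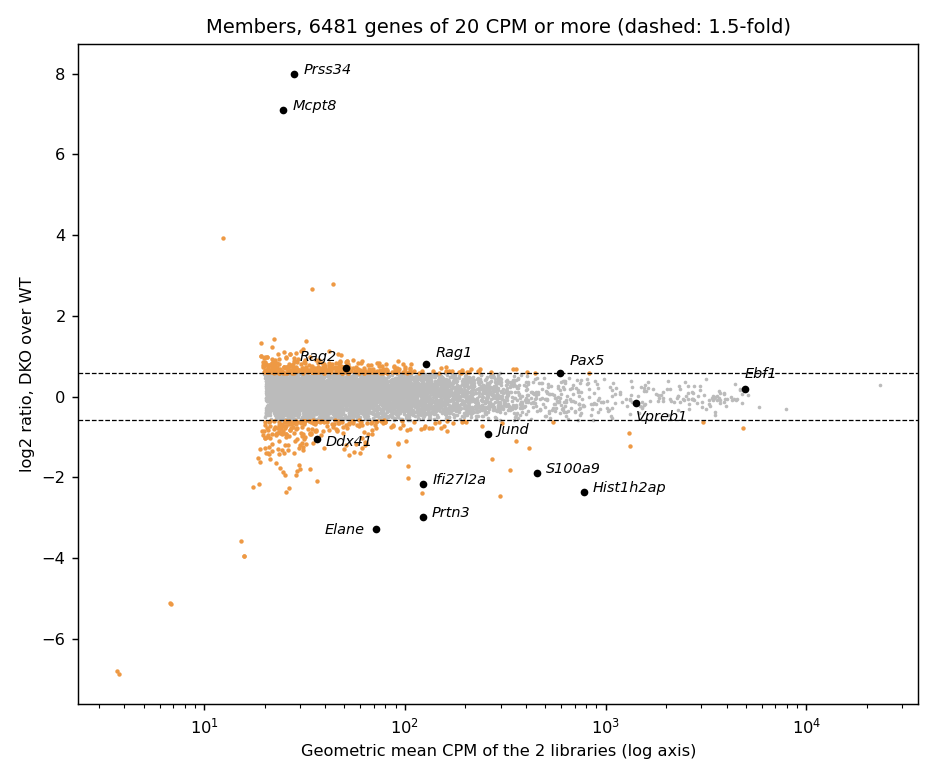
Log2 ratio of DKO over WT members against the geometric mean CPM of both libraries (log axis) for 6481 genes, with genes past 1.5-fold (dashed lines) in orange and named genes in black. Mcpt8 and Prss34 stand far above, Hist1h2ap, Ifi27l2a, Elane, Prtn3 and S100a9 far below, and Vpreb1 and Ebf1 lie close to 0.

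The surrogate light chain genes were near the same level in both libraries and 0 of 4 were called. Vpreb1 was at 1498 CPM in WT and 1346 in DKO (log2 ratio -0.15, -0.22 to -0.09), Igll1 at 1172 and 1053 (-0.15, -0.23 to -0.08) and Vpreb2 at 118 and 153 (0.38, 0.16 to 0.60). Vpreb3, which encodes a chaperone of the pre-B receptor, was at 2574 and 2053 CPM (-0.33, -0.38 to -0.27). Of 16 genes for the signalling parts of the receptor, 0 were called, with a median log2 ratio of 0.17. Cd79a was at 1062 and 982 CPM, and Syk, the kinase that carries the signal, at 289 and 359. Pik3ap1, the adaptor BCAP, had the highest ratio of the list (0.54, 0.38 to 0.70).

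The recombinase genes were higher in DKO members. Rag1 (chromosome 2, 101638282 to 101649501) had 269 UMIs in WT and 417 in DKO, or 96.4 and 169 CPM, a log2 ratio of 0.81 (0.58 to 1.04), and was the only gene of the fixed lists on B cells among the 10 highest of at least 100 CPM. It was spread over 111 of 294 WT and 80 of 167 DKO members. Rag2, its neighbour on the chromosome, had 111 and 160 UMIs (39.8 and 64.8 CPM, 0.70, 0.35 to 1.07). Both were above WT in 3 of the 4 states and below it in Dntt-low cycling members. Lig4, the ligase of end joining, was at 29.0 and 44.2 CPM (0.60, 0.18 to 1.04), and 0.47 without possible doublets. Dntt was at 413 and 519 CPM (0.33, 0.21 to 0.45). In Dntt-positive cycling members, a state that Dntt itself defines, it was at 863 and 1418 CPM.

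In all, 3 of 13 genes for recombination and end joining were higher and 0 lower, against 5.23% and 4.04% over all genes. The list median was 0.22. The same direction was seen for Rag1 in the later sets, from 65.6 to 233 CPM in Ighd-low (log2 ratio 1.83) and from 4.09 to 28.5 CPM in Ighd-high barcodes (2.70), which come from the same 2 libraries. Weighting 3 classes of members equally (Dntt-positive, Dntt-low cycling and Dntt-low resting) left 0.25 for Rag1 and 0.41 for Rag2, and leaving out possible doublets left 0.36 for Rag1, all under the 1.5-fold limit. H2afx, the histone gene that marks broken DNA once phosphorylated, lay lower, at 638 and 441 CPM (-0.53, -0.64 to -0.42).

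Of 23 B lineage transcription factor genes, 2 were called, both higher in DKO, against 5.23% called higher over all genes. Pax5, which commits cells to the B lineage, was at 485 and 732 CPM (0.59, 0.49 to 0.70), and Spib, an ETS factor, at 61.7 and 96.9 CPM (0.65, 0.36 to 0.94). The list median was 0.37 against 0.07 over all genes. Long genes lay higher in DKO as a whole (described below). With the median of genes of like span (genomic length from start to end) taken off, the list median was 0.13, Pax5 was at 0.34, under the 1.5-fold limit, and Spib at 0.80. Without possible doublets Pax5 was at 0.43 and Spib at 0.34, both under the limit. Ebf1, the gene at the head of the program, was at 4628 and 5260 CPM (0.18, 0.15 to 0.22). Spi1, Irf8 and Myc had ratios of -0.39, -0.36 and -0.42, none past 1.5-fold.

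Of 9 genes for receptors and surface proteins of the pro-B stage, Gfra2 was called, with a ratio of 0.64 (0.42 to 0.86) that fell to 0.23 without possible doublets. Cd93, the precursor marker known as AA4.1, was at 121 and 180 CPM (0.57, 0.36 to 0.78), just under the fold. Il7r was at 306 and 333 CPM (0.12, -0.02 to 0.26). Of 10 genes for the passage from large to small pre-B cells, 2 were called, and these were Rag1 and Rag2 again. Ccnd3, the cyclin of pre-B divisions, was at 561 and 664 CPM (0.24, 0.14 to 0.35), and Gimap6, a GTPase gene of lymphocytes, at 232 and 175 (-0.41, -0.59 to -0.23).

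Immunoglobulin constant genes were split. Ighm was at 1419 CPM in WT and 1744 in DKO (0.30, 0.24 to 0.36) and Igkc at 417 and 296 (-0.50, -0.63 to -0.36), and 0 of 4 genes were called. Of the genes of later B stages 0 of 6 were called, with Cd74, the invariant chain gene, at 155 and 136 CPM.

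In the cell-cycle lists 0 of 22 S phase and 0 of 22 G2/M genes were called, with medians of 0.20 and 0.01. Mki67 was at 558 and 764 CPM (0.45) and Top2a at 730 and 903 (0.31), while Ube2c was at 589 and 425 (-0.47) and Birc5 at 418 and 305 (-0.45). Of 23 genes of the DNA damage response, 3 were higher and 0 lower, against 5.23% and 4.04% over all genes, with a median of 0.28 that became 0.16 with span taken off. The 3 were genes of the Fanconi anemia and homologous recombination pathway, Brca2 (34.4 and 57.6 CPM, 0.74), Fanci (20.1 and 34.9 CPM, 0.79) and Fancd2 (30.5 and 48.6 CPM, 0.67). All 3 fell under 1.5-fold with span taken off (0.56, 0.57 and 0.45) and with 3 classes of members weighted equally (0.37, 0.40 and 0.42), and Brca2 did so without possible doublets (0.35). Of 11 genes for Trp53 and its targets 0 were called, with Trp53 at 142 and 119 CPM, Cdkn1a at 34.4 and 28.8 and Mdm2 at 49.1 and 64.0. Of 8 genes of the BCL2 family and 5 genes of marrow niche and adhesion 0 were called.

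Replication-dependent histone genes lay lower in DKO members for 7 of 32, against 4.04% over all genes, and none was higher. The list median of -0.21 became -0.01 with span taken off, and Hist1h2ab (-0.43) and Hist1h4h (-0.52) then fell under 1.5-fold. Hist1h2ap (chromosome 13, 21833026 to 21833507) accounted for most of the distance, with 4923 UMIs in WT and 849 in DKO, or 1765 and 344 CPM (log2 ratio -2.36, -2.47 to -2.25). It lay lower in the later sets too, at -1.89 and -2.74. The summed histone level was 6732 and 4392 CPM with Hist1h2ap and 4967 and 4048 without it. Of its 60-base words 92.9% occur in 22 other genes, and how reads were divided among the H2A copies is uncertain and was not tested. Both libraries list the same 32285 genes, but whether they were counted with one annotation is not given in the sources used here, so counting and expression cannot be told apart for this gene. Hist1h2ae, another H2A gene, was at 525 and 244 CPM (-1.10) and shared 39.2% of its words.

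Of 79 ribosomal protein genes 0 were called, with a median of 0.01 that became 0.19 with span taken off. Counting intervals lay above 0 for 30 of these genes and below 0 for 30. Of 24 ribosome biogenesis genes, Gar1 was called (-0.59), and of 11 snoRNA host genes Zfas1 was (61.0 and 92.8 CPM, 0.60). Neither call held under each setting, with Gar1 at -0.44 with span taken off and -0.47 by the mean of CPM over barcodes, and Zfas1 at 0.29 without possible doublets. Among 26 DEAD-box helicase genes Ddx41 was lower and Ddx55 higher (14.7 and 25.5 CPM, 0.78).

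Interferon-stimulated genes lay lower for 4 of 12 and higher for 1, against 4.04% and 5.23% over all genes. Ifi27l2a had 733 UMIs in WT and 143 in DKO members, or 263 and 58.0 CPM (-2.17, -2.45 to -1.92), and was lower in all 4 states, from 303 and 88.7 CPM in Dntt-positive resting to 209 and 41.4 in Dntt-low cycling members. Its neighbour Ifi27 was at 96.1 and 36.5 CPM (-1.39), Irf9, a part of the interferon response factor, at 28.3 and 13.8 (-1.02) and Bst2, the antiviral tetherin, had 237 and 113 UMIs (-0.89, and -0.37 without possible doublets). Irgm1, a GTPase of the interferon gamma response, was at 16.5 and 25.9 CPM (0.64). Ly6e was at 787 and 696 CPM. Below the 20 CPM limit, Isg15 had 91 and 15 UMIs.

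The list median was -0.15 in members, -0.37 in Ighd-low and -0.40 in Ighd-high barcodes. With span taken off it was -0.29 in members. Of 15 genes of MHC class I and its peptide supply 3 were lower, against 4.04% over all genes. These were Psmb9 (-0.64), H2-Q6 (-0.71) and H2-Q7 (-0.82). B2m was at 900 and 789 CPM and the list median was -0.27. With span taken off the median was -0.10, and Psmb9 (-0.49) and H2-Q6 (-0.57) fell under 1.5-fold. Of 7 genes of cytosolic nucleic acid sensing, Samhd1 was lower (55.9 and 34.9 CPM, -0.67).

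Immediate response genes are switched on within minutes of a stimulus. They lay lower for 5 of 11 and higher for 0, against 4.04% and 5.23% over all genes. Jund was at 356 and 188 CPM (-0.91, -1.08 to -0.76), Jun at 46.6 and 24.3 (-0.93), Ier2 at 47.7 and 26.3 (-0.84), Klf2 at 110 and 68.1 (-0.69) and Junb at 44.1 and 28.0 (-0.65). Jund was lower in each of the 4 states, with 765 and 414 CPM in Dntt-positive resting members. In the later sets Jund was at -0.33 and -0.24, and whether the members differed from them was not tested. All 5 are short genes, and the list median of -0.22 became -0.03 with span taken off, while Jund stayed at -0.72. Klf2 (-0.50) and Junb (-0.45) then fell under 1.5-fold, and Junb was at -0.39 with at least 4 UMIs of Vpreb1 and Igll1.

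RNA of other cell types differed between the libraries. All 9 neutrophil list genes tested were lower in DKO, with a summed level of 2557 CPM in WT and 644 in DKO members, as were 4 of 4 monocyte genes (863 and 347 CPM) and 5 of 8 erythroid genes (11509 and 7056 CPM). For hemoglobin, 5 barcodes held 57.9% of the UMIs of WT members and 5 others 78.9% of those of DKO members. Of the T and NK cell list 0 genes reached 20 CPM, with sums of 60.6 and 48.2 CPM. For plasmacytoid dendritic cells 1 of 3 genes, for plasma cells 0 of 2 and for stem and myeloid progenitors 1 of 1 were lower, and for basophils and megakaryocytes 3 of 5 were higher and 2 lower. Of the 10 lowest genes, 7 belonged to such cells. Elane (-3.27), Prtn3 (-2.99), Ctsg (-2.39) and Mpo (-2.02) are proteases and a peroxidase of myeloid progenitors, and 5 barcodes held 80.8% of their 2945 WT UMIs and 5 others 92.8% of their 419 DKO UMIs. S100a9 (-1.88) and S100a8 (-1.81) were spread over 272 of 294 WT and 140 of 167 DKO members, and free RNA of the WT library was rich in them (8948 CPM of S100a8). Ly6c2 (-1.72), a surface gene of monocytes, was the seventh, and Hist1h2ap and Ifi27l2a were also among the 10.

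On the other side, the basophil protease genes Prss34 (7.99) and Mcpt8 (7.09) led the higher genes, and 2 DKO members, both in the Dntt-positive cycling state, held 99.8% of their 1846 UMIs. Without barcodes rich in such RNA the ratio of Prss34 was -1.32. The other 7 of the 10 highest genes were Itch (0.81), Dennd5b (0.81), Lrba (0.74), Eif4g3 (0.73), Glcci1 (0.71), Mctp2 (0.70) and Ankrd13a (0.69). Leaving out 27 WT and 8 DKO members with at least 20 UMIs of basophil, granule, S100a8 and S100a9, Lyz2 or platelet genes left 581 called genes, of which 370 were called in the same direction as before.

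Gene span moved with the ratio as well. The median log2 ratio was -0.20 in the shortest of 10 equal groups of genes by span and 0.26 in group 9, and the course was alike in the later sets, from -0.20 to 0.29 in Ighd-low and from -0.28 to 0.35 in Ighd-high barcodes. With the median of each group taken off, 427 genes were called, 146 higher and 281 lower. Rag1 then stood at 0.90, Rag2 at 0.85 and Ifi27l2a at -1.98. The part of gene span in the other differences was not tested beyond these values.

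**Figure D5:**
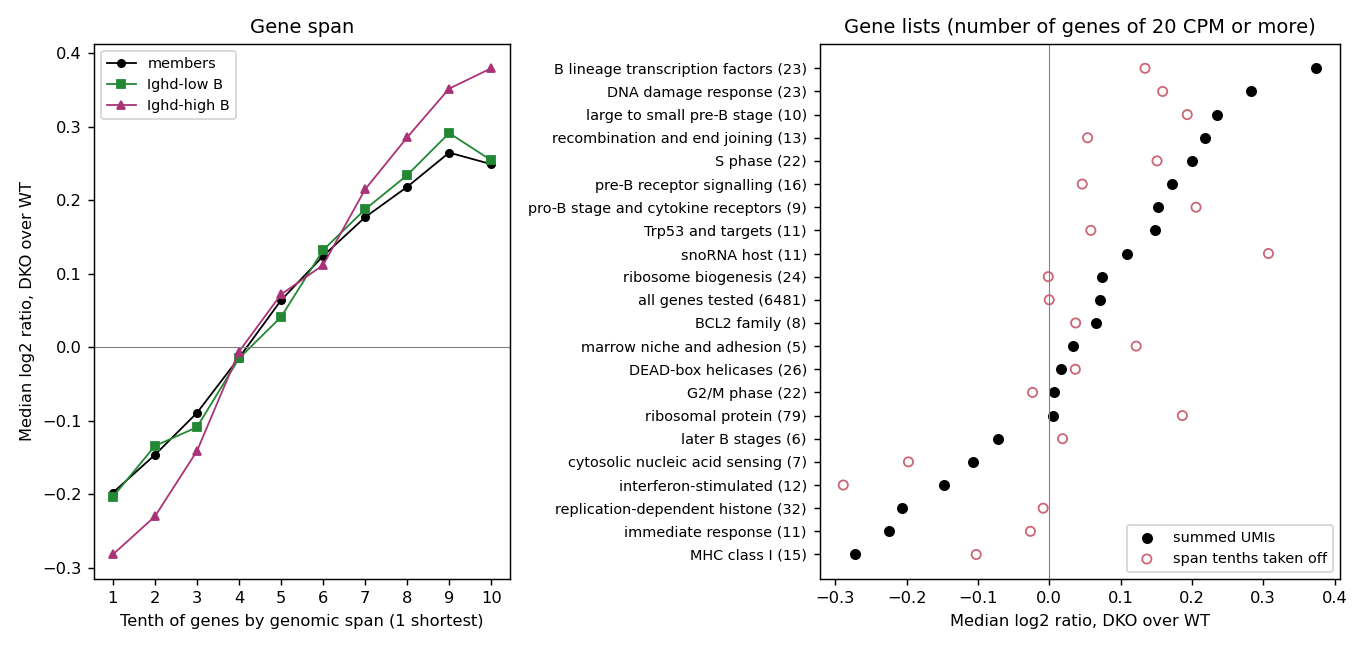
Left, median log2 ratio of DKO over WT in 10 equal groups of genes by genomic span, for members and both later B sets. Right, median log2 ratio of each gene list in members (filled), with the number of genes tested, and after the median of each span group is taken off (open). Medians rise from -0.20 in the shortest group to 0.26 in group 9, and list medians run from -0.27 for MHC class I to 0.37 for the transcription factors, which are -0.10 and 0.13 after span is taken off.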

How the data were processed

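Bone marrow cells were captured with the Chromium Single Cell 3′ v3 kit, and the authors aligned and counted reads with Cell Ranger 7.1.0 on mm10. Raw UMI counts were deposited for 32285 genes per library. The WT matrix lists 1518290 barcodes, of which 19947 had 500 or more UMIs, and the DKO matrix lists 14142 called barcodes only. The members and lists were chosen with earlier results of these data known. Here UMIs were summed over members, scaled to CPM and compared as log2 ratios with 1 count added and exact conditional binomial intervals, and shares have Clopper-Pearson intervals. No doublet caller was run. UMIs lower PCR error, yet intervals cover counting error only. Python 3.11.15, numpy 2.4.6, scipy 1.17.1, pandas 2.3.3 and matplotlib 3.10.9 were used, and the ratios were tested on simulated data. Gene positions and spans came from GENCODE M21, which held 32235 of the gene IDs, and promoter windows from RefSeq. Named genes were Ddx41, Cgas, genes of the rule and lists, the 10 highest and 10 lowest of at least 100 CPM, and the 15 leading over later B barcodes. Alternatives changed the marker, depth, doublet, scaling and level limits. Some genes that these rules name are not reported here.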

Additional observations from a re-analysis of the deposited data

How the results depend on the processing

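No paired analysis was possible because each genotype had 1 library, and for the same reason no replicate could be left out. The share of members among barcodes, 2.54% in WT and 2.13% in DKO, was 2.18% in WT with at least 4 UMIs of Vpreb1 and Igll1, 3.28% and 2.54% with at least 2000 UMIs a barcode, 1.52% and 1.24% without the 118 WT and 70 DKO possible doublets, and 1.80% and 1.20% with all barcodes thinned to 2000 UMIs. In WT members the Dntt-positive share was 57.1% with at least 4 UMIs of Vpreb1 and Igll1 and 37.1% at 3000 UMIs, and the cycling share 56.8% without possible doublets and 77.6% with at least 3000 UMIs or 77.2% thinned to 3000. The cycling share of Dntt-positive WT members was 36.1% without possible doublets and 57.8% with at least 3000 UMIs. The count of 601 called genes became 1135 with 3 classes of members weighted equally, 213 of 3522 at 50 CPM or more and 6273 of 16672 with no level limit, where fewer or more genes were tested in the last 2. Other settings gave 427 to 764 called genes. The higher share of called genes was 56.4%, and it became 35.9% with the median set to 0, 34.2% with the medians of span groups taken off and 71.1% without the 27 WT and 8 DKO mixed barcodes. Without possible doublets, 267 of the 601 genes were called in the same direction. Cgas turned from -0.99 to 0.15 without possible doublets, and Prss34 from 7.99 to -0.85 and, without mixed barcodes, to -1.32. The ratio of Ddx41 stayed between -1.34 and -0.89. Of 510 values for 51 named genes, 428 moved by less than their counting interval, 80 moved by more and 2 changed sign, those of Prss34. Requiring 0 UMIs of Vpreb1 and Igll1 in later B barcodes gave 81 leading genes in place of 54. The settings on mixed barcodes, gene span, cycling by depth and cycling within Dntt-positive members were chosen after seeing the data. Apart from the resting WT members that the depth limit left out, the cause of these movements was not tested. Depth limits genes near 20 CPM, which rest on about 55.8 WT and 49.3 DKO UMIs.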

Other observations

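Variable genes of the immunoglobulin loci, which no comparison above used, were counted as sums over each family. Heavy chain variable genes (Ighv, 185 genes) had 66 UMIs in WT and 49 in DKO members, or 23.7 and 19.9 CPM, highest per UMI in the resting states, with 69.6 and 49.3 CPM in Dntt-positive resting members. Ighv14-2 was the most frequent in both libraries, with 15 and 9 UMIs. Kappa variable genes (Igkv, 160 genes) had 84 and 58 UMIs, or 30.1 and 23.5 CPM, against 116 and 107 CPM in Ighd-low barcodes. In Dntt-positive cycling members they had 1 UMI in WT and 2 in DKO, and in Dntt-low resting members 129 and 65.7 CPM. Igkv19-93 led in members of both libraries, with 28 and 14 UMIs, whereas Igkv1-110 led in the Ighd-low and Ighd-high sets. Lambda variable genes had 4 and 2 UMIs in members against 231 and 102 in Ighd-low barcodes. Reads that begin in the 3′ end of a transcript seldom reach the variable segment, so these sums do not measure how many members had rearranged a locus.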
